A study of Bos grunniens and Bos grunniens x Bos taurus with 2 samples.

Results

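Blood endothelial cells without a transcript of BMX made up 946 of the 11991 cells in a yak testis library and 711 of the 8930 cells in a cattle-yak testis library. A cell was a member if its UMIs (unique molecular identifiers, one per captured transcript) of CDH5, TIE1, KDR, EMCN, TEK and PECAM1 summed to at least 3, BMX was at 0, the lymphatic gene MMRN1 had at most 1 UMI, and the pericyte genes KCNJ8, ABCC9 and HIGD1B together had at most 1 UMI. Cells with a mitochondrial share of 30% or more were left out, and so were 1127 yak cells that the study had typed as germ cells. After these exclusions 9987 yak cells and 7620 cattle-yak cells were kept, of which members were 9.47% (exact binomial 95% interval 8.90 to 10.1) and 9.33% (8.69 to 10.0). The members were thus chosen by their measured UMIs of these genes, so the levels of the selecting genes are a description only.

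The yak library was made from the testis of a Bos grunniens male after sexual maturity, and the cattle-yak library from that of a male of the Bos grunniens x Bos taurus cross, also after sexual maturity. Both tissues were thawed from frozen pieces, digested with collagenase, hyaluronidase and trypsin, returned to serum-containing medium at culture temperature and captured by droplet sequencing, and no treatment separated them. Each cross was 1 library, with 60816600 UMIs in yak and 43774841 in cattle-yak, so no difference between them has a replicate check and none is attributed to the cross. Members had a median of 4602.5 UMIs and 1560.5 genes in yak, and 5175 UMIs and 1646 genes in cattle-yak. Their median mitochondrial shares were 11.4% and 15.3%. The libraries shared 24 cell barcodes. All intervals cover counting error only.

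Endothelial cells line every vessel. Arterial cells use Notch signalling and gap junction connexins, venous cells carry the adhesion molecules that slow leukocytes, and capillary cells exchange gases, ions and nutrients with the tissue through thin walls on a basement membrane. In the testis the vessels run through the interstitium between the seminiferous tubules, whose own barrier is formed by Sertoli cells and not by endothelium. BMX is a Tec-family kinase known from arterial endothelium, so its absence leaves capillary, venous and other endothelial cells together.

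Markers that the selection did not use placed the cells with blood endothelium. VWF, the multimeric glycoprotein that tethers platelets, was at 374 CPM (the gene's share of all UMIs summed over the group, in parts per 1000000; exact Poisson 95% interval 360 to 389) in yak members and 205 CPM (192 to 218) in cattle-yak members. In all other kept cells of the same library it was at 65.4 CPM and 39.8 CPM. CA4, a carbonic anhydrase on the luminal face of capillary endothelium, was at 333 CPM (319 to 347) and 362 CPM (346 to 380) in members, against 59.1 CPM and 36.1 CPM in the other cells. Both libraries therefore had both markers higher in members, and VWF was the gene whose member level differed more between the libraries.

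The receptor phosphatase PTPRB, which acts on VE-cadherin and TIE2, was at 499 CPM and 415 CPM in yak and cattle-yak members and at 3.48 CPM and 2.85 CPM in T/NK-gated cells. ROBO4, an endothelial guidance receptor, was at 626 CPM and 573 CPM in members and at 5.30 CPM and 8.56 CPM in the same lymphoid cells. The T/NK gate also required no UMI of any of the selecting endothelial genes. Low endothelial levels in T/NK-gated cells are therefore partly set by the gate and are a description only. Of 18 pan-endothelial genes with enough counts, 17 were past 2-fold higher in members than in all other cells in both libraries, where 3.36% of all genes were, and none was past 2-fold lower. PROX1, the lymphatic fate factor, was at 4.91 CPM and 0.835 CPM, against 202 CPM in 667 yak and 110 CPM in 194 cattle-yak cells gated on 2 or more MMRN1 UMIs. CCL21, a lymphatic chemokine, was at 13.2 CPM in yak members and at 61.4 CPM in cattle-yak members, with a UMI in 3.59% and 15.2% of them, a cattle-yak over yak log2 ratio of 2.13 that was 3.74 without the sub-clusters holding markers of other cell types. In lymphatic-gated and T/NK-gated cells that log2 ratio was 2.23 and 3.04, and the part of free RNA in it was not tested. One label field of both samples names germ cells, and another names testis as the tissue.

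**Figure D1:**
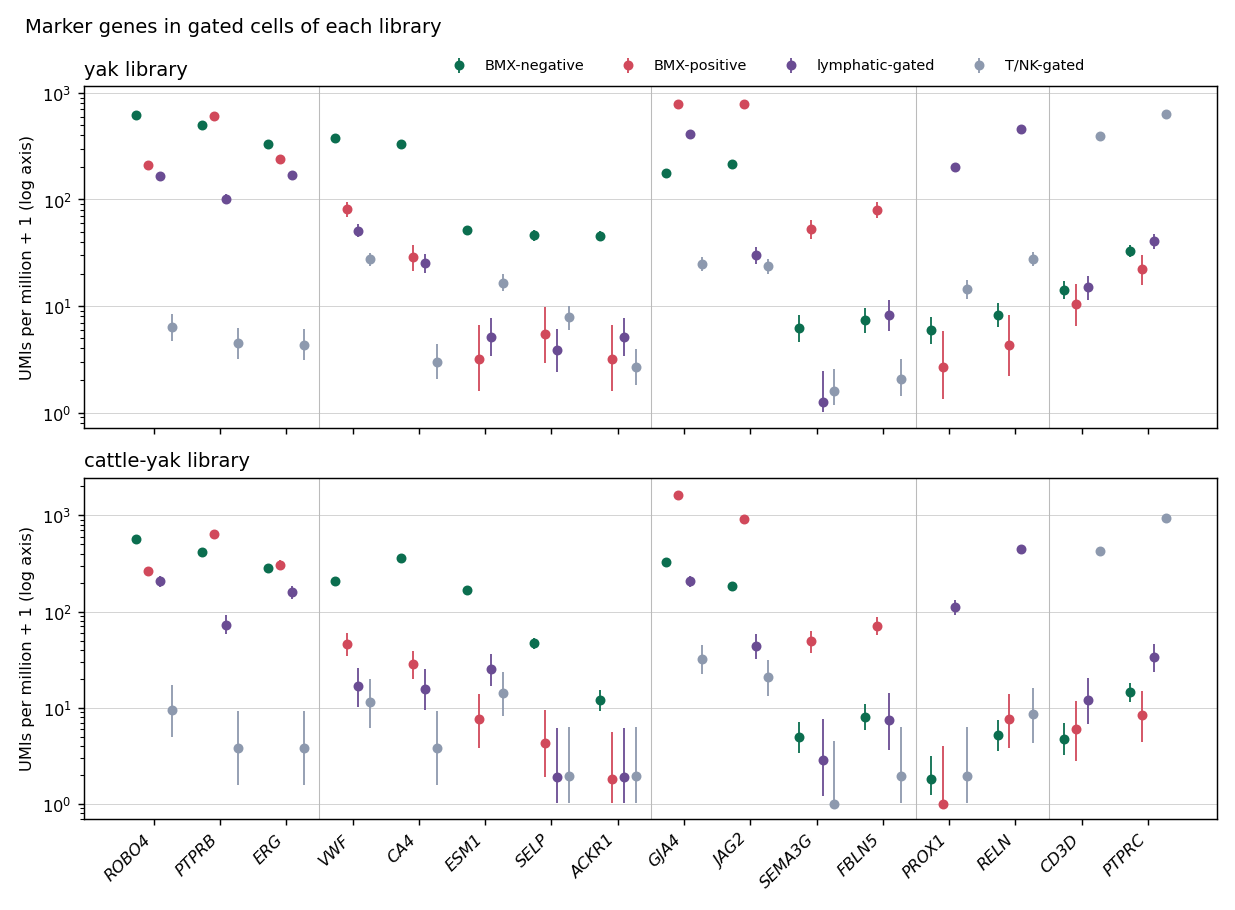
Levels (CPM plus 1, log axis) of 16 marker genes in BMX-negative, BMX-positive, lymphatic-gated and T/NK-gated cells of each library; points are summed counts of 1 library and bars are exact Poisson 95% intervals. VWF, CA4, ESM1, SELP and ACKR1 lie above the BMX-positive cells in both libraries, and GJA4, JAG2, SEMA3G and FBLN5 lie below them.

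Among the selecting genes, PECAM1, an adhesion molecule of endothelial junctions, was at 699 CPM in yak and 567 CPM in cattle-yak members. CDH5, which encodes VE-cadherin, was at 337 CPM and 229 CPM and had a UMI in 72.1% and 64.8% of members. EMCN, a sialomucin of capillary and venous surfaces, was at 407 CPM and 496 CPM, with a UMI in 79.1% and 84.2% of members. The VEGF receptor KDR was at 356 CPM and 486 CPM. The angiopoietin receptor TEK was at 89.1 CPM and 116 CPM, and its partner TIE1 at 31.5 CPM and 52.8 CPM. The sum of these 6 genes per cell had a median of 10 in both libraries and reached 98 in yak and 90 in cattle-yak. BMX itself was at 0 by the rule, which 3 counts would have put at 0.446 CPM and 0.627 CPM.

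At the lower edge of the selection the levels of the endothelial markers were lower. In yak, cells with a six-gene sum of 2, just outside, had VWF at 40.3 CPM and CA4 at 24.2 CPM. The 143 yak cells with a sum of 3, just inside, had VWF at 132 CPM and CA4 at 78.1 CPM, and those with 10 or more had 459 CPM and 403 CPM. In cattle-yak, VWF went from 10.5 CPM outside to 48.6 CPM in the 69 cells with a sum of 3 and 266 CPM at 10 or more, and CA4 from 22.4 CPM to 90.5 CPM and 421 CPM. In both libraries, then, members at a sum of 3 held less of both markers than members with high sums.

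A BMX count of 0 also depended on how deeply a cell was read. Among the cells that passed every other limit, a BMX UMI was seen in 6.72% of yak cells under 2000 UMIs and in 24.5% of those with 8000 or more. In cattle-yak the shares were 2.33% and 25.7%. BMX-positive cells, 179 in yak and 118 in cattle-yak, had medians of 7776 and 9213 UMIs, well above the members. In T/NK-gated cells, which should lack the gene and had medians of 2250 and 2570 UMIs, a BMX UMI was seen in 0.266% and 0.562%. GJA4, a connexin of arterial endothelium, was at 327 CPM in yak members under 2000 UMIs and at 132 CPM in those with 8000 or more. In cattle-yak members it was at 576 CPM and 321 CPM, with 375 CPM and 301 CPM in the steps of depth between. Members of low depth therefore held more of this arterial transcript than deep members, and the part that undetected BMX plays in this was not tested.

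**Figure D2:**
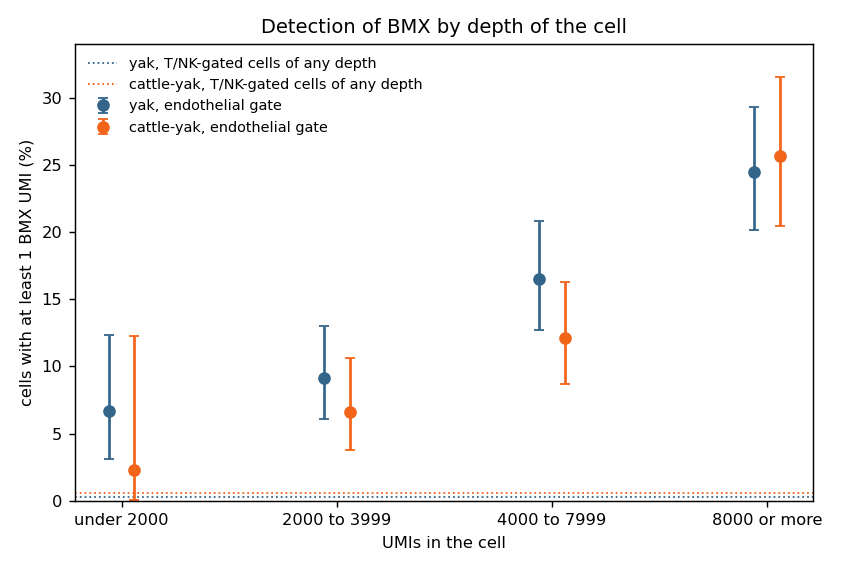
Share of cells (%) with at least 1 BMX UMI among cells passing every other limit, by the number of UMIs in the cell, with exact binomial 95% intervals; dotted lines give T/NK-gated cells. The share goes from 6.72% to 24.5% in yak and from 2.33% to 25.7% in cattle-yak.

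Transcripts of other cell types were present in some members. At least 2 UMIs of the marker genes of other cell types were found in 305 yak members (32.2%) and 166 cattle-yak members (23.3%). The doublet caller Scrublet marked none of the 11991 yak cells, so it identified no doublets there, and why was not tested. In cattle-yak it marked 251 cells, 28 of them members. No cell was removed for it. Summed over whole lists, macrophage genes were at 43.4 CPM in yak and 19.4 CPM in cattle-yak members, with the most UMIs from AIF1 in yak (27.7 CPM) and more from CD68 (3.55 CPM) than from AIF1 (1.46 CPM) in cattle-yak. Pericyte genes were at 198 CPM and 207 CPM, with MCAM the most abundant and NDUFA4L2 at 0. Stromal genes were at 236 CPM and 356 CPM, with DCN at 70.0 CPM and 84.6 CPM and COL1A2 at 58.1 CPM and 127 CPM, and Sertoli and Leydig genes at 52.6 CPM and 34.9 CPM. The erythroid genes HBM and ALAS2 were at 0. The part of these other cells in the results below was not tested, and the comparisons are also given without the sub-clusters that hold such markers. A further 48 yak cells passed every gene limit but had been typed by the study as germ cells, among them 30 of its 84 spermatogonial stem cells. These 48 cells had PTPRB at 404 CPM. They are not members and enter none of the values below.

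Against all other kept cells, the named genes with the highest ratios in members were SELP, TFPI2, CA4, VWF, ADGRG6, ARFGEF3, DLL1 and AVPR2. With 10556 genes having at least 100 counts in each library, 355 (3.36%) were past 2-fold higher in members in both libraries and 760 (7.2%) past 2-fold lower. Ratios are log2 values of the CPM with 1 CPM added to each side. SELP, the adhesion receptor stored in endothelial granules that lets leukocytes roll, was at 45.1 CPM in yak members and 6.64 CPM in other cells. In cattle-yak it was at 46.2 CPM and 2.65 CPM, giving ratios of 2.59 and 3.69. TFPI2, a Kunitz-type inhibitor of serine proteases, was at 1319 CPM against 228 CPM in yak and 674 CPM against 104 CPM in cattle-yak (ratios 2.53 and 2.69). The Notch ligand DLL1 was at 47.6 CPM against 10.6 CPM and at 39.1 CPM against 7.11 CPM (ratios 2.06 and 2.30). ADGRG6, an adhesion G protein-coupled receptor, had ratios of 2.29 and 2.98, and the vasopressin receptor AVPR2 had 2.06 and 2.37.

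Transporters and antigen presentation genes were also among those higher, in a comparison where 3.36% of all genes were past 2-fold higher and 7.2% lower. Of 10 measured solute carriers and efflux pumps, 4 were past 2-fold higher and none lower. SLCO2A1, which takes up prostaglandins, had ratios of 1.98 and 2.36, and ABCG2, an efflux pump of barrier endothelium, 1.85 and 2.22. Of 6 measured antigen presentation genes, 3 were past 2-fold higher and none lower. CD74, the class II invariant chain, was at 4006 CPM in yak and 3561 CPM in cattle-yak members, with ratios of 1.07 and 1.58. Of 15 BMP and TGF-beta genes 3 were past 2-fold higher, and of 7 flow-responsive genes 1, the nitric oxide synthase NOS3, at ratios of 1.44 and 1.57. KLF2, the shear-stress factor, was at 2591 CPM and 2836 CPM in members, with ratios of 0.76 and 0.99 that did not pass 2-fold.

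Capillary, venous and arterial lists were mixed in this comparison, in which 3.36% of all genes were higher and 7.2% lower. Of 8 measured capillary genes, 2 were past 2-fold higher, CA4 with ratios of 2.47 and 3.29 among them, and 1 was lower. Of 11 venous genes, 4 were past 2-fold higher and 4 lower. NR2F2, a venous and lymphatic transcription factor that stromal cells also use, was at 46.5 CPM in yak and 58.1 CPM in cattle-yak members, against 139 CPM and 160 CPM in the other cells. Of 14 arterial genes 1 was past 2-fold higher, CXCL12, with ratios of 1.62 and 1.45, and 1 lower. Most lists of other cell types held lower genes: 5 of 6 measured T/NK genes, 6 of 8 contractile genes, 6 of 7 stromal genes, 6 of 7 macrophage genes and 4 of 5 pericyte genes and 2 of 4 Sertoli and Leydig genes were past 2-fold lower in members, and none of these was past 2-fold higher. Of 7 germ cell genes none was past 2-fold in either direction. CCL5, a chemokine of cytotoxic lymphocytes, was at 133 CPM against 919 CPM in yak and 12.7 CPM against 219 CPM in cattle-yak.

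Set against BMX-positive endothelial cells of the same library, the members held more of some capillary, venous and basement membrane genes, such as CA4, SELP and COL4A1, and less of some arterial ones, such as GJA4. Both groups were taken from 1 dissociation, so depth of the library and handling were shared. Of 5475 genes with enough counts, 128 (2.34%) were past 2-fold higher in members in both libraries and 132 (2.41%) past 2-fold lower. The median ratio over all these genes was -0.04 in yak and -0.11 in cattle-yak.

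ESM1, a secreted proteoglycan of sprouting endothelium that binds growth factors, ranked first among the genes higher in members by the smaller of its ratios in the libraries. It was at 50.3 CPM in yak members and 2.21 CPM in BMX-positive cells, and at 167 CPM and 6.61 CPM in cattle-yak, with ratios of 4.00 and 4.47. PVALB, a calcium buffer, had a ratio of 3.92 in both libraries, but the BMX-positive side held only 1 UMI in yak and 2 in cattle-yak (intervals without the added CPM 2.84 to 10.7 and 2.69 to 7.62). CA4 was at 27.7 CPM and 27.3 CPM in BMX-positive cells, with ratios of 3.54 and 3.68. The membrane protein TM4SF18 was at 237 CPM against 22.1 CPM in yak and 275 CPM against 9.08 CPM in cattle-yak. PDE2A, a phosphodiesterase activated by cyclic GMP, was at 125 CPM against 9.96 CPM and at 81.0 CPM against 8.26 CPM. FMO1, a flavin monooxygenase, had ratios of 3.49 and 4.56, the latter against 1 UMI (interval 3.17 to 10.98). SELP had ratios of 3.09 and 3.45. LHX6, a homeobox factor, had 3.22 and 4.15, the latter against 1 UMI (2.75 to 10.6). The phosphodiesterase PDE7B had 3.20 against 3 UMIs (2.25 to 6.12) and 3.30 against 2 UMIs (2.04 to 6.99).

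CA4 and VWF were also compared at equal depth. After thinning every cell to 1000 UMIs, CA4 had a UMI in 22.9% of 919 yak members, in 1.68% of 179 BMX-positive cells and in 0.336% of 1490 T/NK-gated cells. In cattle-yak the shares were 20.5% of 708 members and 1.69% of 118 BMX-positive cells, and none of 353 T/NK-gated cells had one (upper limit 1.04%). Without thinning CA4 was seen in 46.6% and 44.7% of members. VWF was seen after thinning in 25.1% of yak and 11.3% of cattle-yak members, in 7.82% and 2.54% of BMX-positive cells, and in 1.74% and 0.850% of T/NK-gated cells. Its unthinned shares were 58.8% and 32.6% of members. With so few UMIs, 29 genes were past 2-fold higher and 22 lower than in BMX-positive cells with enough counts. Thinning left out 27 yak and 3 cattle-yak members with fewer UMIs.

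Some venous genes were higher too, while NR2F2, a venous fate factor, had log2 ratios of 0.22 and -0.18. Without the sub-clusters holding markers of other cell types NR2F2 stood at -0.32 and -0.37, and CPE, a peptidase on the venous list, went from 1.31 and 1.38 to -0.42 and -0.81. ACKR1, the atypical chemokine receptor of venules, was at 44.3 CPM against 2.21 CPM in yak and 11.1 CPM against 0.826 CPM in cattle-yak, with ratios of 3.82 and 2.72, the latter against 1 UMI (interval 1.20 to 9.07). TLL1, a metalloprotease, had ratios of 2.80 and 2.48, the latter against 3 UMIs (1.30 to 5.20). IL1R1, the interleukin-1 receptor, was at 41.9 CPM against 9.41 CPM and at 29.9 CPM against 9.91 CPM. ACKR1 and TLL1 had fewer than 100 counts over both groups in cattle-yak and enter no count of genes against BMX-positive cells. Of 6 venous genes with enough counts, 2, SELP and IL1R1, were past 2-fold higher in both libraries and none lower, and of 5 capillary genes 3 were higher and none lower. These are 6 of the 13 venous and 5 of the 12 capillary genes in the annotation, and 2.34% of all genes were past 2-fold higher. SELP, with 8 and 4 UMIs in BMX-positive cells, and ESM1, with 4 and 8, passed the count limit through the members, so the counts are tilted towards genes higher in members and are a description only. Summed over the list, venous genes had ratios of 1.12 and 1.14 and capillary genes 1.04 and 0.97. The capillary sum rested largely on CA4 and ESM1: of 718 CPM in yak and 854 CPM in cattle-yak members CA4 gave 333 CPM and 362 CPM and ESM1 50.3 CPM and 167 CPM, while in BMX-positive cells the sums were 349 CPM and 436 CPM and CA4 gave 27.7 CPM and 27.3 CPM. CD36, a fatty acid receptor on the same list with too few counts, had log2 ratios of -1.14 and -1.18. Over the alternative settings the venous ratio ranged from 0.73 (every cell weighted equally) to 1.52 (cells with at least 8000 UMIs) in yak, and from 0.81 (thinned to 1000 UMIs) to 2.44 (cells with 2 or more UMIs of other cell types left out) in cattle-yak.

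Of the lists, that of the vessel's basement membrane had the largest number of genes higher. By share the capillary list was ahead, with 3 of 5 measured genes. Of 10 measured basement membrane genes, 5 were past 2-fold higher in both libraries and none lower, where 2.34% of all genes were higher. The count limit was on both groups summed and members held more UMIs, so this count is a description only. COL4A1, a chain of the collagen IV network, was at 1987 CPM in yak members and 455 CPM in BMX-positive cells, and at 1307 CPM and 480 CPM in cattle-yak, with ratios of 2.12 and 1.44. Its partner chain COL4A2 had ratios of 2.15 and 1.35. COL15A1, a collagen that anchors the membrane to the interstitium, was at 260 CPM (248 to 272) against 23.2 CPM in yak and 155 CPM against 19.8 CPM in cattle-yak. The laminin chains LAMA4 and LAMB1 had ratios of 1.28 and 1.39 in yak and 1.69 and 1.55 in cattle-yak. SPARC, a collagen-binding matrix protein, was at 3491 CPM and 5330 CPM in members, with ratios of 0.52 and 0.87 that did not pass 2-fold. Summed, the list had ratios of 1.03 and 0.97.

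Transport and signalling genes split. SLCO2A1 was at 214 CPM against 90.2 CPM in yak and 403 CPM against 88.4 CPM in cattle-yak (ratios 1.24 and 2.18), and ABCG2 had ratios of 1.44 and 1.88. These were the 2 of 6 measured transporters past 2-fold, where 2.34% of all genes were past 2-fold higher and 2.41% lower. TGFBR3, a co-receptor for TGF-beta ligands, had ratios of 1.84 and 1.24, while BMP2, a ligand of the BMP family, had -2.74 and -2.52 and SMAD6, an inhibitor of BMP signalling, -1.48 and -1.66. The other 9 of 12 measured BMP and TGF-beta genes did not pass 2-fold in both libraries. Among junction genes GJA1, a connexin, had ratios of 1.28 and 1.34, but the tight junction protein CLDN5 had -1.29 and -1.36 and LSR -1.97 and -2.28. ROBO4 and CD34 were higher in members, with ratios of 1.58 and 1.05 in yak and 1.14 and 1.12 in cattle-yak.

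Some arterial genes were lower in members. CXCR4, on the same list, had ratios of 0.06 and 0.69 without the sub-clusters holding markers of other cell types. GJA4 was at 176 CPM in yak members and 781 CPM in BMX-positive cells, and at 325 CPM and 1609 CPM in cattle-yak, with ratios of -2.14 and -2.30. GJA5, another arterial connexin, was at 6.25 CPM against 57.0 CPM and at 2.92 CPM against 55.3 CPM, and SEMA3G, an arterial semaphorin, had ratios of -3.09 and -3.30, both with fewer than 100 counts in cattle-yak. FBLN5, which assembles elastic fibres, was at 6.39 CPM against 79.1 CPM and at 7.10 CPM against 70.2 CPM. The ephrin EFNB2 had -1.68 and -1.49. CXCL12, a chemokine, was at 1070.1 CPM against 1634 CPM in yak and 710.3 CPM against 1857 CPM in cattle-yak, which passed 2-fold in cattle-yak only (-0.61 and -1.38). Of 9 arterial genes with enough counts, 5 were past 2-fold lower in both libraries and none higher, where 2.41% of all genes were lower. FBLN5 in cattle-yak had 34 UMIs in members and 85 in BMX-positive cells, so it passed the count limit only with the latter. Genes high in BMX-positive cells can pass this way, so the count is a description only. The summed list had ratios of -1.13 and -1.64.

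Of the Notch genes, JAG1, JAG2 and HEY1 were lower in members. JAG1 and JAG2, ligands of Notch receptors, had ratios of -2.31 and -1.86 in yak and -2.08 and -2.30 in cattle-yak, and HEY1, a target gene, -2.64 and -2.24. With all members these 3 were the ones past 2-fold among 8 measured, and none was higher, where 2.41% of all genes were lower. Without the sub-clusters holding markers of other cell types, LFNG of the same list was past 2-fold higher, at 1.10 and 1.13. JAG1, JAG2 and HEY1 were still past 2-fold lower in both libraries. With all members DLL1, which was higher in members than in all other cells, had ratios of 0.42 and 0.50 over BMX-positive cells. FBLN2, a matrix glycoprotein, was at 36.7 CPM against 451 CPM in yak and 22.6 CPM against 223 CPM in cattle-yak. S100A4, a calcium-binding protein, was at 257 CPM against 1589 CPM and at 157 CPM against 1061 CPM. IGFBP3, which binds insulin-like growth factors, ALPL, an alkaline phosphatase, and the secreted hormone STC1 were also past 2-fold lower in both libraries.

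Clotting control was divided between the groups, in a comparison where 2.34% of all genes were past 2-fold higher and 2.41% lower. VWF and SELP were past 2-fold higher in members, VWF with ratios of 2.22 and 2.17, while PROCR, the protein C receptor, had -2.80 and -2.03 and PLAT, the tissue plasminogen activator, -1.58 and -1.50. The remaining 7 of 11 did not pass 2-fold in both libraries. NOS3 was lower in members, at 26.5 CPM against 73.0 CPM in yak and 25.5 CPM against 83.4 CPM in cattle-yak. Among 10 interferon response genes 2 were past 2-fold lower, ISG15 at ratios of -1.21 and -1.04 and IFIT1 at -1.62 and -1.59. Of 17 immediate early and heat shock genes 1 passed, the chaperone HSPH1 at 1.12 and 1.06, which is not read as a result about that list. None of 9 hypoxia genes or 6 testis niche genes passed in either direction.

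Other cell types were not evenly spread between the groups. Contractile genes summed to 2760 CPM in yak members and 2379 CPM in BMX-positive cells, but to 1281 CPM and 3300.1 CPM in cattle-yak, with TAGLN, an actin-binding protein of smooth muscle, the most abundant. Germ cell genes summed to 469 CPM against 493 CPM in yak and 266 CPM against 109 CPM in cattle-yak. T/NK genes summed to 212 CPM against 191 CPM and to 40.9 CPM against 34.7 CPM. SOX9, a Sertoli cell factor that is also seen in other cells, had ratios of -1.81 and -2.08. With the sub-clusters holding such markers left out, 137 genes were past 2-fold higher and 144 lower, and GJA4, COL4A1 and ESM1 had ratios of -1.95, 2.49 and 4.36 in yak and -2.19, 1.64 and 4.67 in cattle-yak. Cells were left out on the member side only. Of BMX-positive cells, 31.8% in yak and 32.2% in cattle-yak had 2 or more UMIs of other types and stayed in. The part of this in ratios such as that of CPE was not tested.

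**Figure D3:**
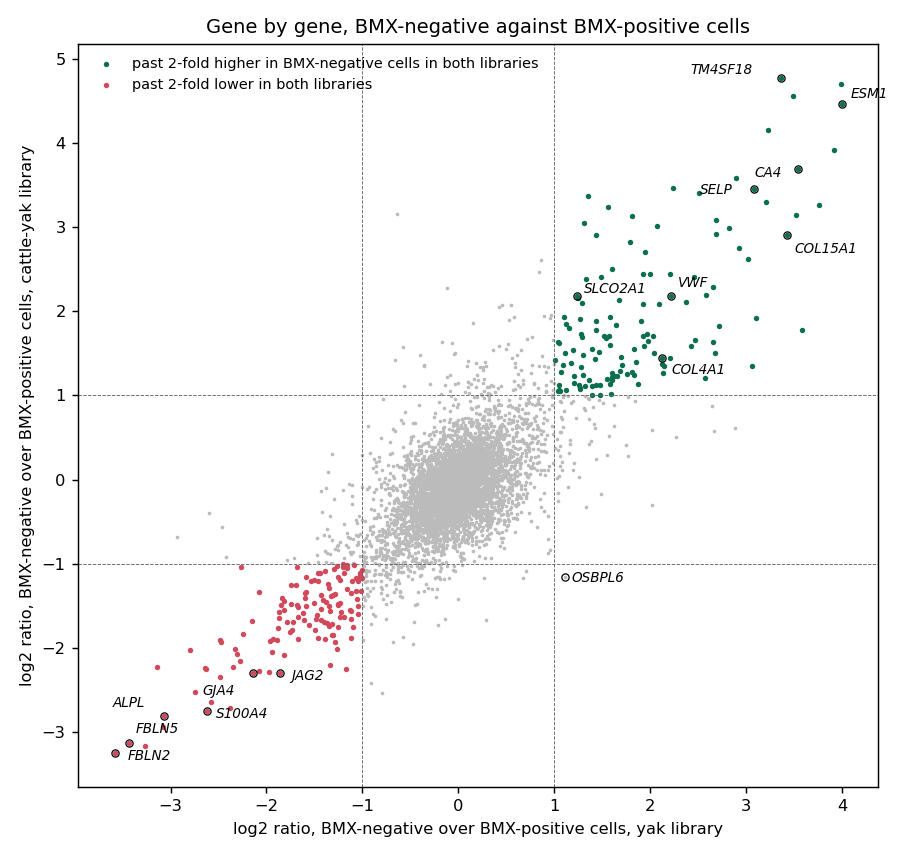
Each of 5475 genes is placed by its log2 ratio of BMX-negative over BMX-positive cells in the yak library (horizontal) and the cattle-yak library (vertical); dashed lines mark 2-fold. Coloured points are the 128 genes past 2-fold higher and the 132 past 2-fold lower in both libraries, and OSBPL6 lies past 2-fold in opposite directions.

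Members were not of one kind. Grouping them in each library without the selecting genes gave 9 sub-clusters in yak and 7 in cattle-yak. Because the clusters were built from the same genes, their levels are a description with no test, and their sizes are not compared between libraries. A name was given only where at least 3 markers of a type on a set list were enriched.

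Venous-like members were yak sub-cluster 1 (215 cells, 6 venous markers) and cattle-yak sub-cluster 4 (77 cells, 7 venous markers). They held SELP at 118 CPM and 216 CPM, ACKR1 at 139.6 CPM and 61.2 CPM, and VCAM1, a ligand for leukocyte integrins, at 164 CPM and 180.0 CPM. TFPI2 was at 3187 CPM and 2832 CPM there, and ESM1 was at 0.572 CPM and 2.40 CPM. CA4, a capillary marker, was not low there, at 413 CPM and 824 CPM, and ACKR1 was also seen in yak sub-cluster 3, at 61.5 CPM beside ESM1 at 208 CPM.

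Arterial-like members were yak sub-cluster 5 (101 cells) and cattle-yak sub-cluster 3 (90 cells), each with 9 arterial markers. GJA4 was at 940.3 CPM and 1762 CPM in them, near or above the 781 CPM and 1609 CPM of BMX-positive cells. CXCL12 was at 3538 CPM and 2609.5 CPM, and CA4 at 27.0 CPM and 14.9 CPM, as low as in BMX-positive cells. Their medians of 3977 and 3743 UMIs lay below those of BMX-positive cells. Members therefore included cells with the arterial genes of BMX-positive cells and no BMX UMI. Leaving these sub-clusters out gave 142 genes past 2-fold higher and 151 lower than BMX-positive cells.

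Yak sub-cluster 2 (212 cells) was capillary-like by CA4, RGCC, ESM1 and TCF15, with CA4 at 597 CPM and SLCO2A1 at 433 CPM. Its leading gene TCAP, a sarcomere protein, is not a capillary marker. In cattle-yak no sub-cluster reached 3 capillary markers. Cattle-yak sub-cluster 1 (235 cells), led by CCL21, PVALB and TCAP, had CA4 at 501 CPM, ESM1 at 217 CPM and SLCO2A1 at 638 CPM. The chemokine CCL21 is a lymphatic marker, and it was at 151 CPM in this sub-cluster and at 6059 CPM in lymphatic-gated cells of that library; whether free RNA gave it was not tested. A pair of sub-clusters, yak 3 (164 cells) and cattle-yak 2 (215 cells), had COL12A1, a fibril-associated collagen, as the first of the named leading genes, with COL4A1 at 4053 CPM and 2770.2 CPM and ESM1 at 208 CPM and 391 CPM. ANGPT2, a ligand of TEK that destabilises vessels, was at 297 CPM and 83.5 CPM in that pair.

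Yak sub-cluster 8 (29 cells, unnamed) was led by chemokines that interferon gamma induces. CXCL9 was at 3733 CPM there and CXCL10 at 1326 CPM, and the tryptophan-degrading enzyme IDO1 was at 506 CPM. The antiviral GTPase MX1 was at 553 CPM and ISG15 at 802 CPM. At this resolution no cattle-yak sub-cluster was led by these chemokines, and CXCL10 was at 72.0 CPM in its venous-like cells.

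The remaining sub-clusters carried 3 or more markers of another cell type: 225 yak members (23.8%, 21.1 to 26.6) in 4 sub-clusters and 94 cattle-yak members (13.2%, 10.8 to 15.9) in 3. Yak sub-cluster 4 (117 cells) had 4 germ cell markers and 3 lymphatic ones (PROX1, CCL21 and RELN), a median of 1773 UMIs and a median six-gene sum of 4, near the limit. ZPBP, a protein of the sperm acrosome, was at 646 CPM in it. Yak sub-cluster 6 and cattle-yak sub-cluster 6 held stromal, pericyte and contractile genes and cattle-yak sub-cluster 5 stromal genes without contractile ones, with DCN, a matrix proteoglycan, at 909 CPM, 182 CPM and 975 CPM in that order. Yak sub-cluster 7 held T/NK genes, with CCL5 at 2046 CPM. Yak sub-cluster 9 and cattle-yak sub-cluster 7, with medians of 24173 and 24034 UMIs, held germ cell genes, UCHL1 at 1234 CPM and 1853 CPM.

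**Figure D4:**
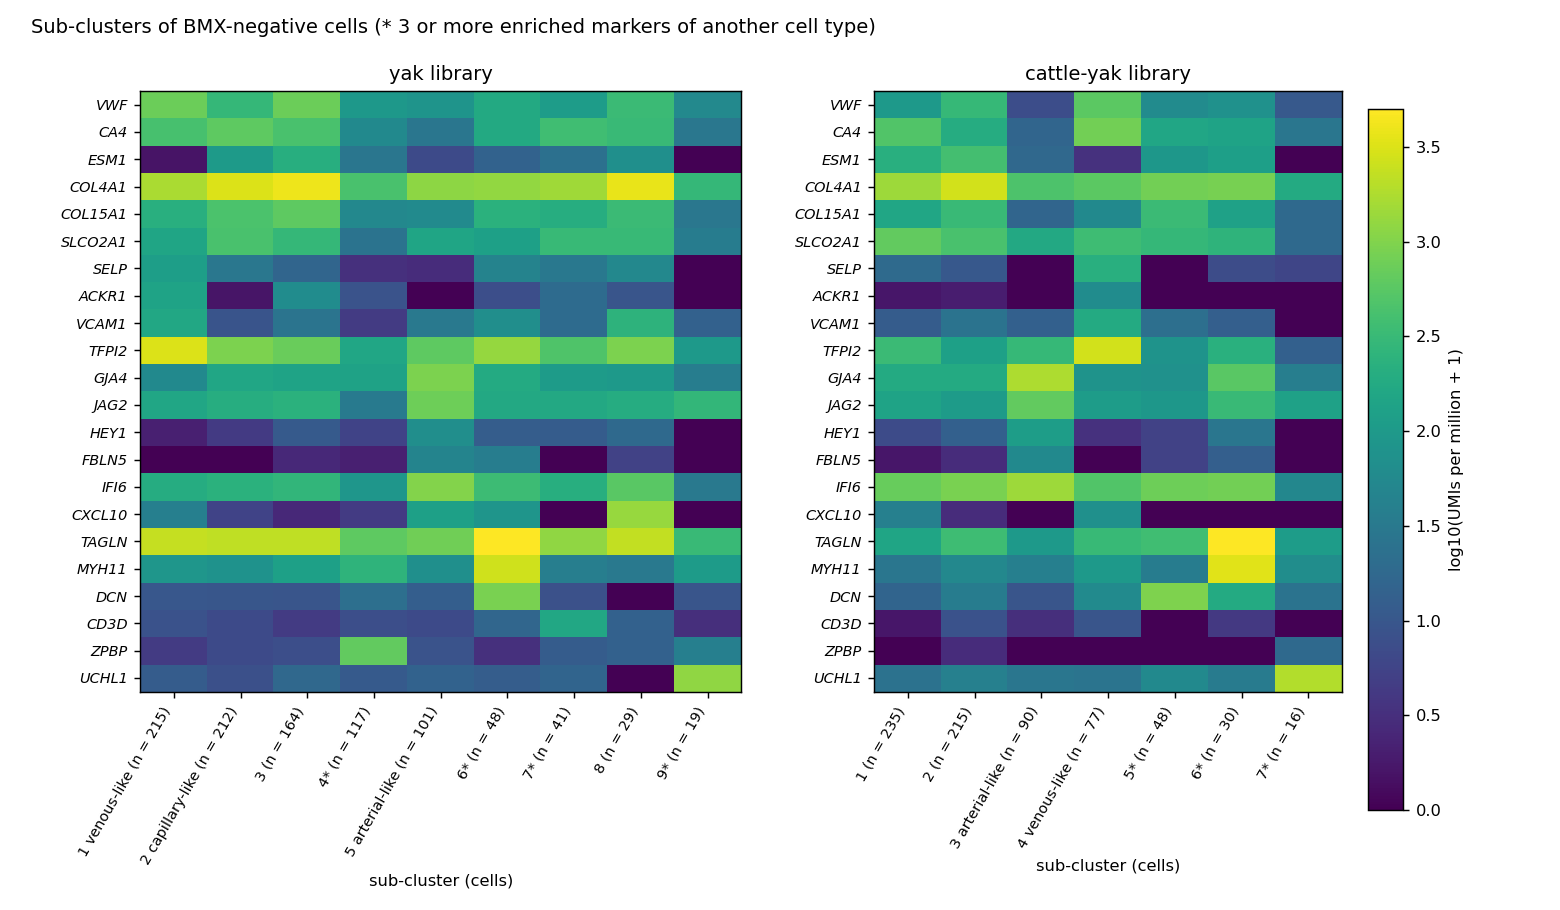
Levels (log10 of CPM plus 1, colour) of 22 genes in the sub-clusters of BMX-negative cells, by library; the number of cells follows each sub-cluster and a star marks 3 or more enriched markers of another cell type. GJA4 is brightest in the arterial-like columns, SELP and ACKR1 in the venous-like ones, and TAGLN is bright across the yak but not the cattle-yak endothelial columns.

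Between the libraries, pan-endothelial genes of the members lay within 2-fold, and the named genes with the lowest ratios included sperm and germ cell genes. Of 7675 genes with enough counts, 143 (1.86%) were past 2-fold higher in cattle-yak members and 847 (11%) past 2-fold lower, with a median ratio of -0.12 over all. None of 17 pan-endothelial genes, 8 arterial genes or 8 Notch genes was past 2-fold in either direction with all members. Without the sub-clusters holding markers of other cell types, VWF had a ratio of -1.01, just past 2-fold lower. IZUMO4, a sperm protein, was at 289 CPM in yak members and 0.418 CPM in cattle-yak members. YBX2, which holds germ cell messenger RNA in storage, was at 179 CPM and 1.88 CPM, and TSACC, a chaperone for the testis kinase TSSK6, at 374 CPM and 5.85 CPM. Of the 847 lower genes, 795 had enough counts in T/NK-gated cells, and 735 of those (92.5%) were past 2-fold lower there too. In BMX-positive cells 174 of 262 (66.4%) were, and in lymphatic-gated cells 142 of 333 (42.6%). The share over all genes in these groups is not given here. Whether free RNA carried these transcripts into the members was not tested.

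Leaving out the sub-clusters with markers of other cell types changed this balance. Of 6089 genes then measured, 144 (2.36%) were past 2-fold higher and 138 (2.27%) lower, with a median ratio of -0.06. Germ cell genes summed to 36.5 CPM in yak and 36.8 CPM in cattle-yak, where all members had 469 CPM and 266 CPM. T/NK genes summed to 66.2 CPM and 42.3 CPM, where all members had 212 CPM and 40.9 CPM. Of the 847 genes, 322 still had enough counts and 96 of these were still past 2-fold lower, and of the 143 higher genes 95 of 102 were still higher. Of 10 measured cell cycle genes, 4 were past 2-fold lower in cattle-yak over all members, where 11% of all genes were. The list as a whole was not lower. Its median ratio was 0.07, and it summed to 577 CPM in yak and 644 CPM in cattle-yak. Without those sub-clusters it summed to 159 CPM and 368 CPM. UBE2C turned with this choice, from a ratio of -1.06 with all members to 1.77 without those sub-clusters. The latter rests on 6 UMIs in yak and 26 in cattle-yak, too few for the count limit. Cell cycle genes with enough counts without those sub-clusters included TOP2A, CENPF and MCM5, with ratios of 2.04, 1.75 and 1.08. PCNA, MCM2 and HMGB2 also had enough counts and did not pass 2-fold.

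**Figure D5:**
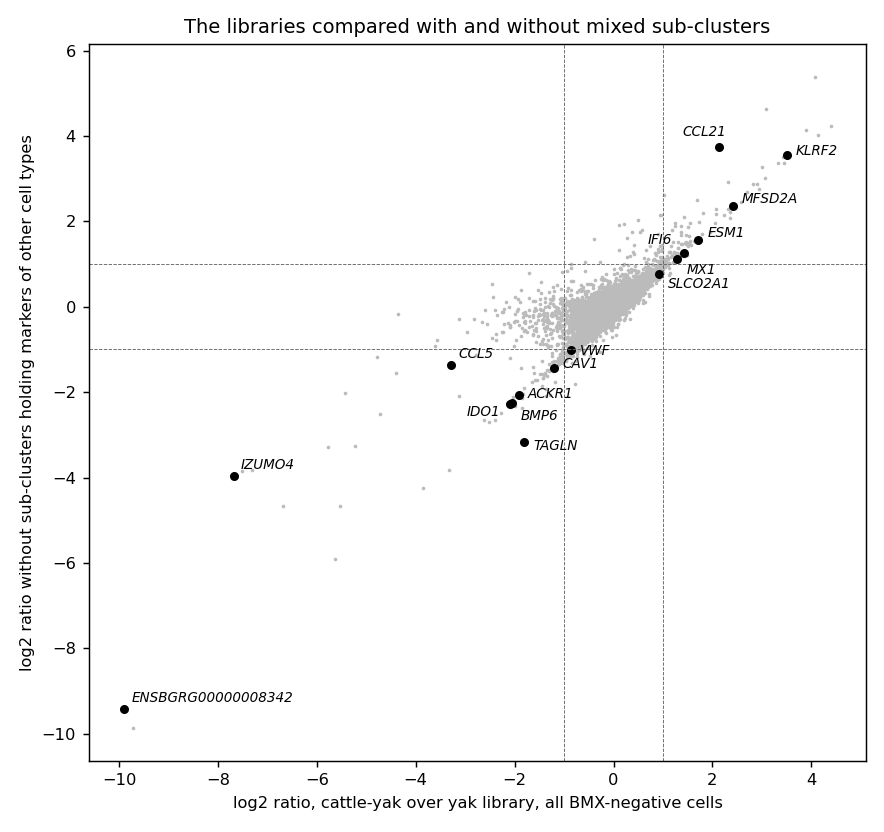
Log2 ratio of cattle-yak over yak members for each gene, with all BMX-negative cells (horizontal) and without the sub-clusters that hold markers of other cell types (vertical); dashed lines mark 2-fold. Of 322 plotted genes past 2-fold lower on the horizontal axis 96 are so on the vertical one, and ESM1, MFSD2A, KLRF2, BMP6, CAV1, ACKR1 and TAGLN stay past 2-fold on both.

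Genes that mark these cells were also compared between the libraries. Of 352 measured genes past 2-fold higher in members than in all other cells, 10 (2.84%, against 1.86% of all genes) were past 2-fold higher in cattle-yak. A further 17 (4.83%, against 11%) were past 2-fold lower. A gene had to be high in members of both libraries to be among the 352. That choice itself limits how many can differ between the libraries, so these shares are a description only. Not all of the 352 are among the genes counted as higher in the comparison with all other cells. Some, such as ACKR1 in cattle-yak, fell short of the count limit used there. KLRF2, a lectin-like receptor known from natural killer cells, was at 6.10 CPM in yak and 79.6 CPM in cattle-yak members, a ratio of 3.50. It was also higher in cattle-yak in BMX-positive cells (7.75 CPM and 38.8 CPM) and in all other cells (1.55 CPM and 16.1 CPM), while T/NK-gated cells had 1 count and 0 counts. DNASE1L3, a secreted nuclease, was at 17.3 CPM and 62.2 CPM (ratio 1.79). Lower in cattle-yak were ACKR1, at 44.3 CPM and 11.1 CPM (ratio -1.91), IDO1, at 67.4 CPM and 15.0 CPM (-2.09), and the adhesion molecule CADM3, at 48.3 CPM and 12.9 CPM (-1.82). IDO1 was lower in cattle-yak in BMX-positive cells too, at 227 CPM and 37.2 CPM, and in all other cells, at 19.9 CPM and 4.31 CPM, and ACKR1 was at 2.30 CPM and 0.482 CPM in all other cells. Over all 143 genes past 2-fold higher in cattle-yak members, 137 had the same sign in all other cells and 70 were past 2-fold there. The share over all genes in that group is not given here, so this overlap is a description only. The activin-binding protein FST had a ratio of -1.35, and EDN1, a vasoconstrictor peptide, -1.15.

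Among capillary and transport genes, ESM1 and MFSD2A were past 2-fold higher in cattle-yak. ESM1 was at 50.3 CPM in yak and 167 CPM (156 to 179) in cattle-yak members, a ratio of 1.71 (1.55 to 1.92) that was 1.56 without the mixed sub-clusters and -0.21 in T/NK-gated cells. After thinning to 1000 UMIs it was seen in 5.11% of yak and 12.9% of cattle-yak members, against 2.62% and 1.13% of T/NK-gated cells. Unthinned it was seen in 12.6% and 31.1%. MFSD2A, which carries lysophosphatidylcholine lipids across barrier endothelium, was at 9.07 CPM and 52.8 CPM, a ratio of 2.42. SLCO2A1 was at 214 CPM (203 to 225) and 403 CPM (386 to 422), a ratio of 0.91 that did not pass 2-fold. Of 9 measured solute carriers and pumps 1 was past 2-fold higher and none lower, and of 6 capillary genes 1 higher and none lower, where 1.86% of all genes were higher. The median ratios were 0.45 and 0.19.

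Single BMP and caveolar genes were lower in cattle-yak. BMP6, a ligand made by endothelium, was at 56.4 CPM in yak and 12.7 CPM in cattle-yak members (ratio -2.06), and BMP4 at 98.9 CPM and 35.9 CPM (-1.44). With SMAD1, a transducer of BMP signals, at -1.10, these were 3 of 13 measured BMP and TGF-beta genes past 2-fold lower (11% of all genes were), and none was higher. The median ratio of the 13 was 0.16, and the summed list was higher in cattle-yak, at 2512 CPM and 3199 CPM. BMP6 was also lower in cattle-yak among BMX-positive cells (-1.44) and all other cells (-1.39), while BMP4 had -0.80 and -0.21 there. CAV1 and CAV2, the coat proteins of caveolae, had ratios of -1.21 and -1.04, 2 of 8 measured genes of that list, whose median ratio was -0.42. CAV1 was at 174 CPM and 74.4 CPM. ANGPT2 was at 100.1 CPM and 32.6 CPM, and VWF had a ratio of -0.87 that was -1.01 without the mixed sub-clusters.

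TAGLN differed between the libraries inside the endothelial sub-clusters. It was at 1945 CPM in yak and 554 CPM in cattle-yak members, a ratio of -1.81 (-1.87 to -1.75) that was -3.18 without the mixed sub-clusters. In the 5 endothelial sub-clusters of yak it lay between 786 CPM and 2361 CPM, and in the 4 of cattle-yak between 100.3 CPM and 354 CPM. Sub-clusters of a library are not replicates, and TAGLN was among the contractile markers that set mixed sub-clusters apart, so these ranges are a description only. In T/NK-gated cells TAGLN was at 482 CPM and 399 CPM, and BMX-positive cells had 1188 CPM and 1177 CPM. After thinning, 69.4% of yak and 17.5% of cattle-yak members had a TAGLN UMI, against 23.9% and 12.5% of T/NK-gated cells. The unthinned shares were 90.9% and 47.7%. MYLK, the myosin light chain kinase, had a ratio of -1.18, and -1.76 without the mixed sub-clusters. The smooth muscle genes MYH11 and ACTA2 had ratios of -0.02 and 0.50 with all members, and -0.72 and 0.08 without the mixed sub-clusters. MYH11 lay between 30.0 CPM and 125 CPM in the endothelial sub-clusters of yak and between 26.9 CPM and 98.4 CPM in those of cattle-yak.

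The interferon-induced genes IFI6 and MX1 were higher in cattle-yak, in members and elsewhere. IFI6 was at 274 CPM in yak and 734 CPM in cattle-yak members, a ratio of 1.42, with 1.30 in T/NK-gated cells and 1.25 in all other cells. MX1 was at 105 CPM and 257 CPM, a ratio of 1.29, with 0.90 and 0.94 in the same groups. With all members these 2 of 11 measured interferon genes passed 2-fold and none was lower, where 1.86% of all genes were higher and 11% lower. Without the mixed sub-clusters IFI6 and MX1 had ratios of 1.26 and 1.11, while IFIT3 was past 2-fold lower, at -1.06. The highest ratio among all genes past the limits was that of the unnamed feature ENSBGRG00000000295, at 2.53 CPM and 73.5 CPM in members, and it was 4.92 in T/NK-gated cells. The lowest was that of ENSBGRG00000008342, at 953 CPM in yak members and 278 CPM in yak T/NK-gated cells and with no count in either group of cattle-yak. It was among the leading features of yak sub-cluster 3, at 5172 CPM. ENSBGRG00000006302 was at 29.6 CPM and 257 CPM in members (ratio 3.07), with -0.67 in T/NK-gated cells and 0.03 in all other cells. In BMX-positive cells it was at 9.41 CPM and 26.4 CPM (ratio 1.40). Lymphatic-gated cells had far more of it, 1180 CPM and 1391 CPM (ratio 0.24).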

How the data were processed

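Testis cells of 1 yak and 1 cattle-yak were captured on a 10x Genomics instrument. The authors mapped the reads to BosGru3.0 with Cell Ranger and deposited counts of UMIs per gene and cell, not normalized; the version is 5.0.0 in the matrix header and 2.1.1 in the submitters' processing notes. The minimum was 500 UMIs per cell. Counts were summed over the cells of each group and scaled to CPM over all 26961 features, with exact Poisson intervals, exact conditional intervals of ratios and Clopper-Pearson intervals of shares, each at 95%. With 1 library per group no test was made. A gene was counted past 2-fold with at least 100 summed counts and 1 CPM added to each side. T/NK-gated cells had 3 or more UMIs of T/NK genes and no UMI of the 6 selecting endothelial genes. Ranked genes also needed a UMI in 10% of the cells on the higher side; the 10 highest and 10 lowest of each comparison and any gene of the lists could be named, with named features preferred over bare identifiers. Genes outside those ranks were chosen after their values were seen. The members and lists were chosen with earlier results of these data known. Sub-clusters used Leiden at resolution 0.5 on 2000 variable genes, 20 components and 15 neighbours (scanpy 1.11.5, igraph 0.11.9, Python 3.11.15, numpy 2.4.6, scipy 1.17.1). The ratios, intervals and thinning were tested on simulated data. No sequence or coordinate was used here.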

Additional observations from a re-analysis of the deposited data

Results flagged for a closer look

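A few genes lay past 2-fold in opposite directions in the 2 libraries, and these differences were not tested. OSBPL6, an oxysterol-binding protein, had a log2 ratio of members over BMX-positive cells of 1.11 in yak and -1.16 in cattle-yak. LYPD1 had a ratio of members over all other cells of 1.06 in yak and -1.30 in cattle-yak. Of the unnamed features, ENSBGRG00000004308 had -1.87 and 1.30 and ENSBGRG00000012266 had -1.68 and 1.03 in the same comparison.

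Among the yak cells that the study typed as germ cells, 48 passed every gene limit of the members, a signal in cells outside the comparisons. Their median was 1838.5 UMIs, with PTPRB at 404 CPM, UCHL1 at 234 CPM and SYCP1 at 425 CPM.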

How the results depend on the processing

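With 1 library per group and cells that are not replicates, counting precision and not animal variation sets every interval, and shallow members lose rare transcripts. No paired analysis was possible because each group held 1 library. Counts of genes past 2-fold moved over 1.5 times under the following settings, each against its value in the report; the cause was not tested where the setting does not itself change how many genes or cells enter. With 6 genes at least 2, 300 genes were higher and 200 lower than in BMX-positive cells, 143 higher than in all other cells, and 225 higher and 1586 lower in cattle-yak. With 6 genes at least 5, 1312 were lower than in all other cells and 419 lower in cattle-yak. Cells within 2 SD of the mean gave 187 lower in cattle-yak, a changed denominator 219 higher, and equal weight per cell 594 higher than in all other cells and 559 lower in cattle-yak. Leaving out cells with 2 or more UMIs of other types gave 347 lower in cattle-yak. Thinning to 1000 UMIs gave 29 higher and 22 lower than in BMX-positive cells, 414 lower than in all other cells, and 25 higher and 77 lower in cattle-yak. A minimum of 30 counts gave 230 higher than in BMX-positive cells and 271 higher and 1488 lower in cattle-yak. A minimum of 300 gave 63 higher and 65 lower than in BMX-positive cells, 484 lower than in all other cells, and 63 higher and 395 lower in cattle-yak. Chosen after seeing the data, leaving out the sub-clusters of other types gave 1642 lower than in all other cells and 138 lower in cattle-yak, and counting between the libraries only genes higher in members than in all other cells gave 10 higher and 17 lower. Resolution 1.0 gave 13 cattle-yak sub-clusters. Member counts stayed within 1.5 times throughout.

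Of 1680 recomputed single ratios over BMX-positive cells 4 changed sign and 334 moved beyond their counting interval, of 1064 over all other cells none and 532, and of 812 between libraries 12 and 296. Of 104 summed lists 58 moved and none changed sign. Of 108 shares of cells recomputed with no thinning or at 500 UMIs, 99 moved, since a share depends on depth. COL3A1 over BMX-positive cells was -0.23 in yak without cells with UMIs of other types, and -0.78 in yak and -0.47 in cattle-yak without the sub-clusters. GUCY1B1 was 0.52 in cattle-yak within 2 SD. Between libraries UBE2C was 0.18 with 6 genes at least 5, 1.67 within 2 SD, 0.33 with equal weight, 0.59 thinned and 1.77 without the sub-clusters. AURKA was 0.22 and 0.46, BUB1 0.55 and 1.04 and BIRC5 0.94 and 1.10, within 2 SD and without the sub-clusters. PTPRC was 0.26 without the sub-clusters.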
